A study of Mus musculus with 28 samples.

Results

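Newly made RNA was compared between mouse forebrain cultures that had received a short hairpin RNA against Rai1 (shRai1) and cultures that had received a control hairpin (shCtrl), both silenced with tetrodotoxin (TTX). The genes described are the 12333 of 22919 listed genes whose mean normalized count over all Bru-seq libraries was at least 50, and they made up 58.2% of the 21192 genes that could be tested. The cultures came from CD1 mice, with cortices and hippocampi of day 18 embryos combined at matched sex ratio, and held neurons, astrocytes and oligodendrocyte precursor cells. Lentivirus carrying either hairpin was added on day 14 in vitro. On day 17 the cultures were treated for 4 h with 1 µM TTX, which blocks voltage-gated sodium channels and so stops action potentials, with 20 µM bicuculline (BIC), which blocks inhibitory GABA-A receptors and raises firing, or with water as vehicle. Bromouridine at 2 mM was present during the last 20 min, so that RNA made in that window could be captured and sequenced (Bru-seq).

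The comparison in TTX rested on 3 shCtrl and 3 shRai1 libraries, and both groups carried a lentivirus and were silenced in the same way. The knockdown was also measured in vehicle (2 shCtrl and 3 shRai1 libraries) and in BIC (2 and 3), and these comparisons share no library with the one in TTX. The embryos were pooled, so the libraries are replicates of pooled cultures and the p-values measure the spread between such samples, which may be technical. The series holds 28 samples, of which 16 are Bru-seq libraries; the ChIP samples were not analysed here. The deposited tables give 1 value per comparison and no value per library, so levels below are fitted group levels, in normalized counts, and the total depth of each library is unknown. In bulk cultures, fewer cells of a type and less RNA per cell cannot be told apart.

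RAI1 is a nuclear protein that binds chromatin and regulates transcription, and loss of 1 copy of its gene causes Smith-Magenis syndrome, a neurodevelopmental disorder with disturbed sleep and circadian rhythm. Neurons that are silenced for a long time strengthen their synapses, a homeostatic response that needs new transcription. A knockdown read in silenced cultures therefore asks which genes differ with Rai1 when firing is absent.

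Rai1 itself had a fitted level of 6386 in shCtrl with TTX and 5857 in shRai1 with TTX. The log2 change was -0.12 (SE 0.064) in the authors' deposited table, which did not pass the test, and its 95% interval ran from -0.25 to 0.0012. The authors' deposited tables put Rai1 at 0.16 (SE 0.073, adjusted p 0.357) in vehicle and at 0.03 (SE 0.073, adjusted p 1.00) in BIC. Both values lay above 0, and neither passed after adjustment. The unadjusted p of the deposited Wald test was 0.0523 in TTX, 0.0252 in vehicle and 0.660 in BIC. Taken as 1 preset gene, Rai1 was thus higher in shRai1 in vehicle at an unadjusted p under 0.05. A hairpin acts on the mature messenger RNA, whereas Bru-seq reads RNA as it is made, so this value does not measure how far the Rai1 messenger was lowered, and it does not check which libraries carried which hairpin. The groups are named as labelled. An exchange of the shCtrl and shRai1 labels among the TTX libraries would reverse the sign of each log2 change of the knockdown in TTX. Without values per library such an exchange was not tested. The changes of TTX against vehicle within each arm would take other values, without a simple reversal, and they were not recomputed. The differences from vehicle and BIC given below would then change in size as well, and they were not recomputed with the TTX sign turned. The interval listed for Rai1 is shared with another gene.

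In silenced cultures, 6 of the 12333 genes differed between shRai1 and shCtrl with a deposited adjusted p below 0.05 (the authors' deposited table, DESeq2 with Benjamini-Hochberg adjustment, 3 libraries a group). That is 0.0486% of the members and 0.0283% of all 21192 tested genes. Cry1, Lfng and Mnt fell, and Trp53inp1, Dhrs1 and Pdgfra rose, so that each direction held 0.0243% of the members. The changes lay between a fall of 34.97% and a rise of 47.1%. The unadjusted p was under 0.05 for 581 members (4.71%), of which 369 were lower (2.99%) and 212 higher (1.72%).

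Cry1 encodes cryptochrome 1, a transcriptional repressor of the circadian clock that acts together with the period proteins. Its fitted level was 575 in shCtrl and 393 in shRai1 under TTX, against 820 and 1024 in vehicle and 1565 and 1891 in BIC. The shRai1 group was thus the lower one in TTX and the higher one under both other treatments, and silencing gave the lowest levels of Cry1 in either arm. In TTX Cry1 fell by 31.7%, a log2 change of -0.55 (SE 0.095, adjusted p 0.000128) in the authors' deposited table. The knockdown changed Cry1 by 0.32 (SE 0.099, adjusted p 0.0946) in vehicle and by 0.27 (SE 0.095, adjusted p 1.00) in BIC in the authors' deposited tables, and neither passed. In the deposited FPKM table, Cry1 spans chr10:84594445-84647799 and had a pooled value of 4.38 FPKM in shCtrl with TTX (interval of the file 2.71 to 6.05).

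Lfng encodes lunatic fringe, a glycosyltransferase that adds sugars to Notch receptors and so alters which ligands they answer to. Its fitted level was 454 in shCtrl and 295 in shRai1 under TTX, 368 and 486 in vehicle, and 236 and 364 in BIC. In shCtrl the level was highest with TTX, whereas in shRai1 it was lowest with TTX. Lfng fell by 34.97% in TTX, a log2 change of -0.62 (SE 0.12, adjusted p 0.00461) in the authors' deposited table. Its changes of 0.40 (SE 0.14) in vehicle and 0.62 (SE 0.14) in BIC did not pass in the authors' deposited tables. It spans chr5:141083295-141091499, where the deposited table gave 21.95 FPKM in shCtrl with TTX (16.2 to 27.7).

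Mnt encodes a repressor that pairs with Max and competes with Myc for the same DNA sites. Its fitted level was 941 in shCtrl and 717 in shRai1 under TTX, 1066 and 1357 in vehicle, and 622 and 874 in BIC. Mnt fell by 23.8% in TTX, a log2 change of -0.39 (SE 0.088, adjusted p 0.0324), whereas it rose by 0.35 (SE 0.096, adjusted p 0.0428) in vehicle and by 0.49 (SE 0.10, adjusted p 0.0116) in BIC in the authors' deposited tables. Mnt was therefore called under all 3 treatments, with the opposite sign in TTX. It spans chr11:74644426-74659227 and had 24.2 FPKM in shCtrl with TTX in the deposited table (18.5 to 29.8).

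All 3 genes that fell carry an E-box with the letters CACGTG, a palindrome that reads alike on both strands, in the 250 bases before their start site. These promoters are shown because CLOCK-BMAL1 and Myc-family proteins are known to bind such E-boxes, and Cry1 and Mnt belong to those networks. The motif was looked for after the called genes were known, together with the cAMP response element TGACGTCA, the D-box TTATGTAA and the RBPJ site GTGGGAA, each on both strands. The sequences are from RefSeq on the GRCm38.p6 build, given 5′ to 3′ on the gene's strand, with the E-box in capitals. The Cry1 promoter lies at chr10:85185055-85185304 on the minus strand, and its E-box begins at position -60 from the start site. The Lfng promoter lies at chr5:140607091-140607340 on the plus strand, with the E-box at -112, and the Mnt promoter lies at chr11:74830674-74830923 on the plus strand, with the E-box at -123.
Cry1: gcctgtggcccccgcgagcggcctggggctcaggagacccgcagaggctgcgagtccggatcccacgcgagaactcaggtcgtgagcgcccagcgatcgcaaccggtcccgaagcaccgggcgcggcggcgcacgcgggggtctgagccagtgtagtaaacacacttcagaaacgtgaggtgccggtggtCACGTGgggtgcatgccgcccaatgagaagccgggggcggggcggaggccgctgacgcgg
Lfng: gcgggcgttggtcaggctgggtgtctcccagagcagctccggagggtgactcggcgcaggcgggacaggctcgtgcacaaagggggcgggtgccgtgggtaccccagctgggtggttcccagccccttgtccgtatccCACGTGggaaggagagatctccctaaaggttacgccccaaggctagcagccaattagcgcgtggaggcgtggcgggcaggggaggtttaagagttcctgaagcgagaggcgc
Mnt: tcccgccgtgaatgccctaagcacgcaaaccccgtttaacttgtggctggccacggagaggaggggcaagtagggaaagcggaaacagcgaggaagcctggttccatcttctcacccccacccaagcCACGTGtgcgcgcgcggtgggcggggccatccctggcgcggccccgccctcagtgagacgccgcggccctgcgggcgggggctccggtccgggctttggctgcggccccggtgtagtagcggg
The promoters of Dhrs1 and Pdgfra, searched over 300 bases from 250 before to 50 after the start, held no CACGTG, and Trp53inp1 was not matched. Of all 32851 RefSeq promoters of that length, 7.15% held the motif, and of the 9293 members with a promoter, 1100 (11.8%) did. The median log2 change in TTX was -0.016 for members with the motif and -0.0076 for members without it, and 3.18% and 2.78% were lower at an unadjusted p under 0.05. The RBPJ site was held by 6.38% of all promoters and by that of Lfng, and 3.44% of the members with it were lower at that p against 2.78% without it. The cAMP response element (1.79% of all promoters) and the D-box (0.938%) were in none of the 5 matched promoters of called genes. Of the 24 members with the smallest p, 17 had a promoter and 4 of these held the motif, 3 of 9 that were lower and 1 of 8 that were higher, which was Atp7a. A match of these letters does not show that a factor binds there.

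Trp53inp1 encodes a nuclear protein that p53 induces under stress. The fitted level was 745 in shCtrl and 997 in shRai1 under TTX, 795 and 553 in vehicle, and 527 and 419 in BIC. The highest of the 6 group levels was that of shRai1 with TTX. Trp53inp1 rose by 33.9% in TTX, a log2 change of 0.42 (SE 0.088, adjusted p 0.0138), and it fell by 0.52 (SE 0.10, adjusted p 0.000428) in vehicle in the authors' deposited tables. The change of -0.33 (SE 0.11) in BIC did not pass in the authors' deposited table. It spans chr4:11083588-11101524.

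Dhrs1 encodes a short-chain dehydrogenase/reductase. Its levels, fitted as above, were 253 in shCtrl and 372 in shRai1 under TTX, 463 and 296 in vehicle, and 458 and 342 in BIC. The shCtrl level was lowest with TTX, and the shRai1 level was highest with TTX. Dhrs1 rose by 47.1% in TTX, a log2 change of 0.56 (SE 0.12, adjusted p 0.0324), and fell by 0.65 (SE 0.13, adjusted p 0.00154) in vehicle in the authors' deposited tables. It spans chr14:56357857-56364521.

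Pdgfra encodes the receptor for PDGF-AA, the growth factor on which oligodendrocyte precursor cells depend, and it is a defining marker of these cells. Its fitted level was 304 in shCtrl and 429 in shRai1 under TTX, 515 and 199.99 in vehicle, and 429 and 230.0 in BIC. In shRai1 the level with TTX was above those with vehicle and BIC, and in shCtrl it was below them. Pdgfra rose by 41.2% in TTX, a log2 change of 0.50 (SE 0.11, adjusted p 0.0482), while it fell by 1.37 (SE 0.13, adjusted p 6.02e-21) in vehicle and by 0.90 (SE 0.13, adjusted p 1.93e-07) in BIC in the authors' deposited tables. The interval listed for Pdgfra, chr5:75548316-75594229, is shared with another gene, so its counts may be split or joined with that gene's.

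**Figure D1:**
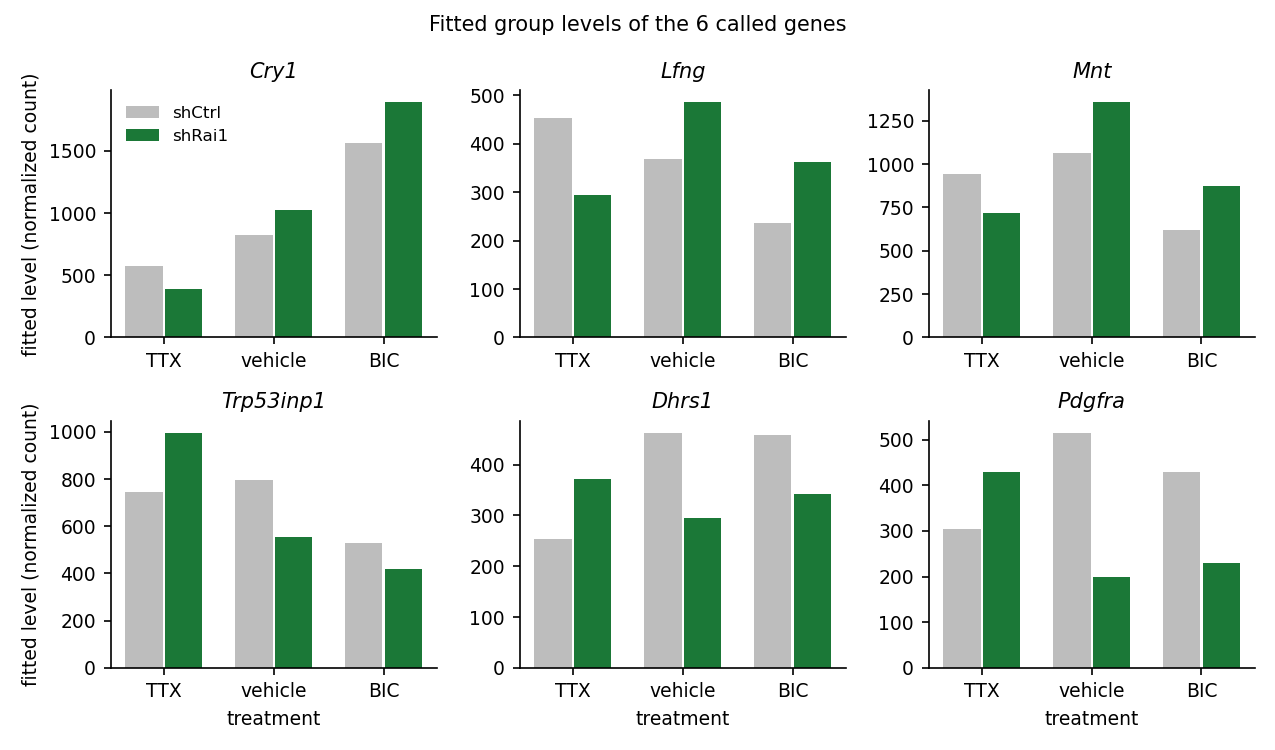
Fitted group levels (normalized counts, vertical axis from 0) of the 6 genes called in TTX, for shCtrl (grey) and shRai1 (green) under TTX, vehicle and BIC; the tables hold no value per library, so no error bar is drawn. Cry1, Lfng and Mnt are lower in shRai1 in TTX only (Cry1 393 against 575), and Trp53inp1, Dhrs1 and Pdgfra are higher in shRai1 in TTX only (Pdgfra 429 against 304).

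The calls depended on the reference distribution of the score. All 6 remained when p-values were adjusted over members only, over genes with a mean count of at least 10 or over genes with at least 0.5 FPKM, and when the changes were centred on their median. With a t distribution on 10 degrees of freedom (16 libraries less 6 groups) in place of the normal, none passed (adjusted p 1.00 for each), with 374 tested genes at an unadjusted p under 0.05.

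**Figure D2:**
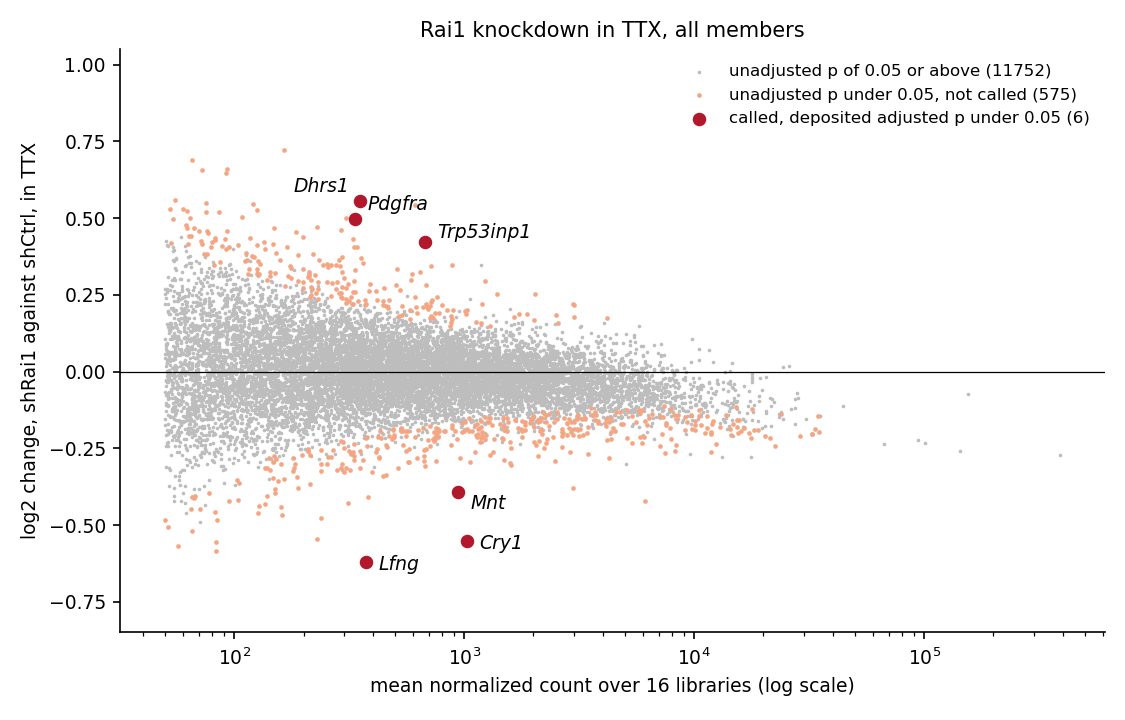
Log2 change of the Rai1 knockdown in TTX (vertical axis) against the mean normalized count over 16 libraries (horizontal axis, log scale), 1 point for each of the 12333 members. The 6 called genes are labelled; at mean counts of 1000 or more, 218 members with an unadjusted p under 0.05 lie below 0 and 20 above.

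The next 18 members by p did not pass (adjusted p 0.104 to 0.564 in the authors' deposited table), and they are given as values. The first was Ephb1, an ephrin receptor tyrosine kinase of axons and synapses, with fitted levels of 6520 in shCtrl and 5367 in shRai1 and a log2 change of -0.28 (SE 0.068). Per2, the period protein that partners with cryptochromes, had fitted levels of 1554 in shCtrl and 1195 in shRai1 under TTX, against 2624 and 3609 in vehicle and 4022 and 5085 in BIC. Its log2 change in TTX was -0.38 (SE 0.096, adjusted p 0.155) in the authors' deposited table, and its levels followed those of Cry1 in their order over the 6 groups.

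The other values below 0 were -0.42 for Alk, a receptor tyrosine kinase, -0.41 for Phka1, a regulatory subunit of phosphorylase kinase, and -0.30 for Ptpn5, the striatal-enriched tyrosine phosphatase STEP, in the authors' deposited table. Wfs1, an endoplasmic reticulum membrane protein, stood at -0.29, the actin motor Myo5b at -0.29, 6330403A02Rik at -0.29, the cell cycle regulator Ccnd2 at -0.25 and the neuron navigator Nav2 at -0.20 in the same deposited table. Above 0 were the nuclear RNA Neat1 (0.72), which builds paraspeckles, the large scaffold protein Ahnak (0.65), the oligodendrocyte lineage factor Olig2 (0.50), the actin-severing protein Gsn (0.47) and Kank1 (0.46), which links actin to adhesions, in the authors' deposited table. Ggta1, a galactosyltransferase, stood at 0.41, the copper transporter Atp7a at 0.34 and the LIM domain protein Limd1 at 0.33 in that deposited table.

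Of these 24 members with the smallest p, 13 were lower and 11 higher in shRai1. The lower ones were expressed more strongly, with a median mean count of 1584 against 332 for the higher ones. The listed interval was shared with another gene for 5 of the 24, namely Pdgfra, Ephb1, Ccnd2, Ptpn5 and Myo5b. All 24 had the opposite sign in vehicle and 22 had it in BIC, the exceptions being Ptpn5 and Myo5b. The TTX comparison chose these genes, so their large values in it are no separate evidence, and the signs in vehicle and BIC come from other libraries. Over all 12333 members, the sign in TTX was opposite to that in vehicle for 57.8% and to that in BIC for 58.2%, and vehicle and BIC were opposite for 39.9%.

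**Figure D3:**
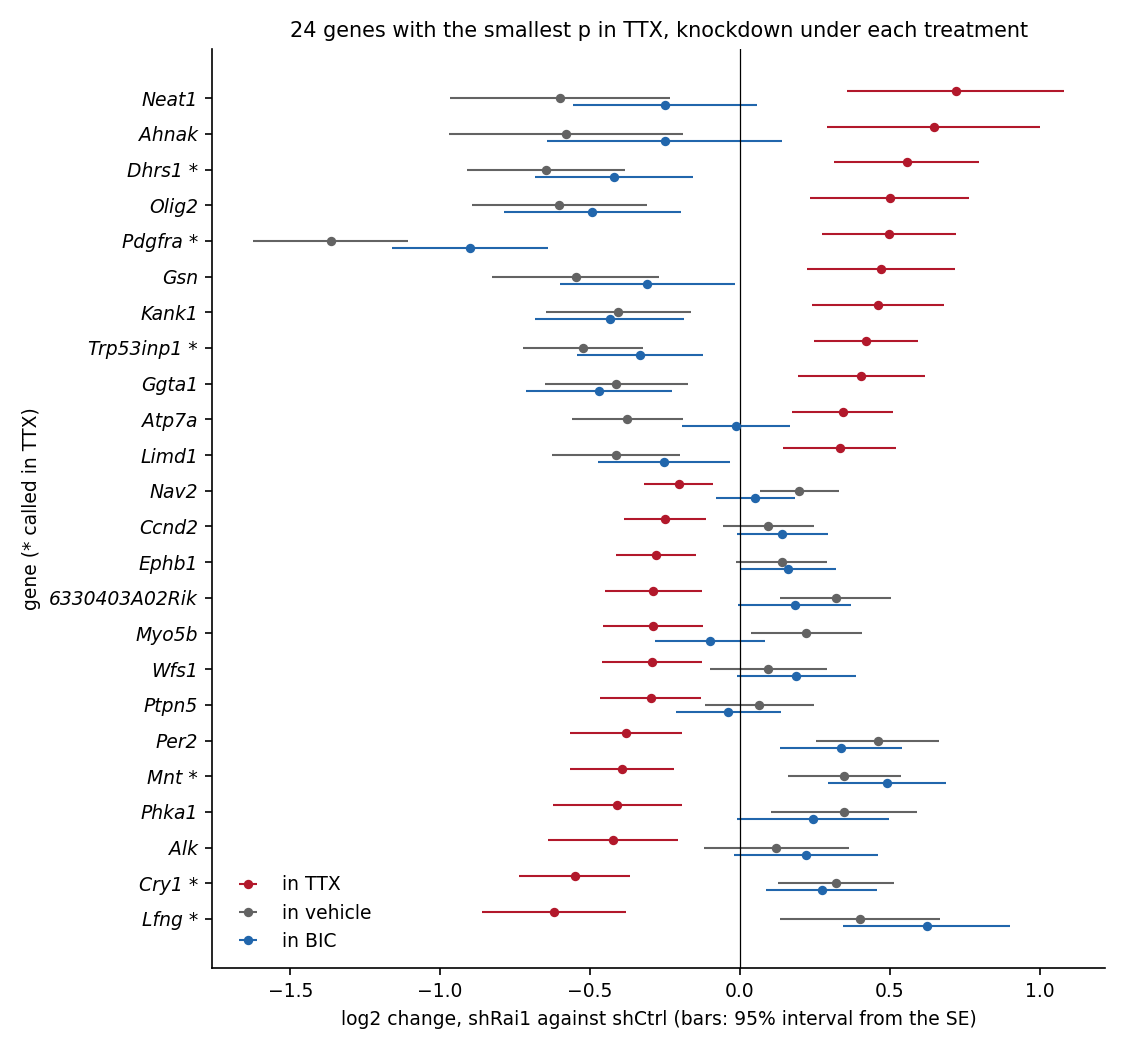
Log2 change of shRai1 against shCtrl (horizontal axis, points with 95% intervals from the SE) in TTX (red), vehicle (grey) and BIC (blue) for the 24 genes with the smallest p in TTX; an asterisk marks the 6 called genes. Red points lie on the other side of 0 from the grey points for 24 of 24 genes and from the blue points for 22 of 24.

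Across all members the changes in TTX were small. The median log2 change was -0.010, the quartiles were -0.077 and 0.059, and the values ran from -0.62 (Lfng) to 0.72 (Neat1). No member reached an absolute log2 change of 1 and 25 reached 0.5, against 2 and 166 for the knockdown in vehicle and 0 and 50 in BIC. Members below 0 numbered 6645 (53.9%) and those above 0 numbered 5688 (46.1%). In vehicle 51.3% were below and 48.7% above 0, and in BIC 48% were below and 52% above. Of the knockdown comparisons, vehicle had 1513 members with an unadjusted p under 0.05 (12.3%), TTX 581 (4.71%) and BIC 521 (4.22%). In the authors' deposited tables, 119 members (0.965%) were called in vehicle and 2 (0.0162%) in BIC. By the same threshold TTX against vehicle changed 3953 members (32.1%) in shCtrl and 4466 (36.2%) in shRai1 in the authors' deposited tables; these responses share the TTX libraries with the knockdown in TTX.

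The precision sets what could be called. The median SE of a log2 change in TTX was 0.107, and it was 0.174 at mean counts from 50 to 200 and 0.0778 at 1000 or more. The smallest absolute score among the called genes was 4.35, which corresponds to a log2 change of 0.46 at the median SE, 0.34 at mean counts of 1000 or more and 0.76 under 200. The SE holds the spread between libraries as well as counting error, and genes with a small SE were called at smaller changes, as Mnt at -0.39 and Trp53inp1 at 0.42. Next to the minimum, Triqk (mean count 50.03) was inside with a log2 change of -0.07, and Il4ra (49.99) was outside with 0.30.

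Members lower at an unadjusted p under 0.05 outnumbered the higher ones at high expression and in long genes. At mean counts from 50 to 200 (3408 members), 80 members were higher and 44 lower at that p. From 200 to 1000 (5163 members) the counts were 112 and 107, and at 1000 or more (3762 members) they were 20 and 218. The SE was smallest in the last class, so smaller changes reached that p there. The median change in these classes was 0.016, 0.0030 and -0.034 in TTX. It was 0.00096, 0.0080 and -0.027 in vehicle, and 0.0098, 0.0067 and 0.0023 in BIC. Among 425 members with listed intervals of 300 to 600 kb, 2 were higher and 43 lower at that p, and among 145 from 600 kb upward 1 was higher and 18 lower, beside 1.72% higher and 2.99% lower among all members. The median change was -0.070 and -0.069 in those length classes, against -0.015 under 10 kb. In vehicle the medians of the same long classes were -0.036 and -0.057, and in BIC -0.028 and -0.032. The part of library scaling in these shifts was not tested.

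The TTX knockdown was then set against the knockdown in vehicle and in BIC gene by gene, as the difference of the log2 changes (two-sided Wald test on the summed squared SEs, Benjamini-Hochberg adjustment over 12333 members). From vehicle, 188 members differed (1.52%), 113 with the TTX value above (0.916%) and 75 below (0.608%). From BIC, 42 differed (0.341%), 22 above (0.178%) and 20 below (0.162%), a split that became 31 above and 17 below when the changes were centred on their median. From the mean of both, 202 differed (1.64%), 109 above (0.884%) and 93 below (0.754%). All 6 called genes were among them in each case. Unadjusted p-values were under 0.05 for 1506, 842 and 1451 members. The differences from vehicle and from BIC contain the same TTX values. Over the 188, the median absolute log2 change of the knockdown was 0.217 in TTX and 0.370 in vehicle. Over the 42, it was 0.336 in TTX and 0.361 in BIC. A called difference is therefore not by itself a large change in TTX. In each of the 188, 42 and 202 members, the TTX value had the opposite sign to the value it was compared with. With the TTX sign turned, as after an exchange of labels, each of these differences would be smaller. The counts were not recomputed with that sign turned. With the t distribution on 10 degrees of freedom, 1 member differed from vehicle and 1 from the mean, Pdgfra in both cases, and 0 from BIC (514 members at an unadjusted p under 0.05).

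With the TTX labels as given, the largest differences upward included 4 oligodendrocyte precursor markers, Pdgfra, Sox10, Cspg4 and Olig2. Their differences would be smaller with the TTX sign turned, and the order was not recomputed that way. The knockdown value of Pdgfra was 1.86 higher in TTX than in vehicle (SE 0.17, adjusted p 1.79e-22) and 1.40 higher than in BIC (SE 0.17, adjusted p 1.51e-11), by the Wald test. Sox10, a transcription factor of the oligodendrocyte lineage, stood at 0.69 in TTX and -0.90 in vehicle in the authors' deposited tables, a difference of 1.59 (SE 0.35, adjusted p 0.00234), whereas its difference of 1.10 from BIC did not pass (adjusted p 0.188). Its fitted level was 55.8 in shCtrl and 89.9 in shRai1 with TTX, and 78.6 and 42.2 with vehicle, around a mean count of 65.4 over all libraries. Cspg4, which encodes the NG2 proteoglycan of these precursors, differed from BIC by 1.00 (SE 0.21, adjusted p 0.00152) and from vehicle by 1.16 (SE 0.21, adjusted p 2.47e-05). Olig2 differed from BIC by 0.99 (SE 0.20, adjusted p 0.00106), with fitted levels of 238 in shCtrl and 337 in shRai1 in TTX against 361 and 257 in BIC.

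Other genes above vehicle or BIC had various roles. Ptgs2, the activity-induced cyclooxygenase 2, differed from vehicle by 1.496 (SE 0.28, adjusted p 5.92e-05), with fitted levels in TTX of 24.1 in shCtrl and 35.2 in shRai1, below the mean count that the members had to reach. Neat1 differed from vehicle by 1.32 (SE 0.26, adjusted p 0.000302), with fitted levels of 54.5 in shCtrl and 89.8 in shRai1 in TTX. Mki67, a marker of dividing cells, differed from vehicle by 1.32 (SE 0.32, adjusted p 0.00757), and Dhrs1 by 1.20 (SE 0.18, adjusted p 1.98e-07). Eda2r, a receptor gene induced by p53, differed from BIC by 1.15 (SE 0.25, adjusted p 0.00375), with fitted levels of 103 in shCtrl and 148 in shRai1 in TTX against 150.3 and 97.5 in BIC. Trp53inp1 differed from vehicle by 0.94 and from BIC by 0.75.

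Below vehicle or BIC, Lfng differed by -1.02 from vehicle (SE 0.18, adjusted p 2.66e-05) and by -1.24 from BIC (SE 0.19, adjusted p 1.54e-07). Cry1 differed by -0.87 (SE 0.14) and -0.82 (SE 0.13), and Mnt by -0.74 (SE 0.13) and -0.88 (SE 0.13). Per2, not called in TTX alone, differed by -0.84 from vehicle (SE 0.14, adjusted p 7.05e-06) and by -0.72 from BIC (SE 0.14, adjusted p 0.000502). Hlf, a PAR-domain factor whose transcription is clock controlled, differed by -0.53 (SE 0.14, adjusted p 0.0133) and -0.61 (SE 0.15, adjusted p 0.0140). Gdf10, a member of the TGF-beta superfamily, differed from vehicle by -1.24, the PIWI protein gene Piwil2 by -1.14, Rhpn1 by -1.02 and Kbtbd8, a ubiquitin ligase adaptor, by -0.95. All 4 had mean counts between 71.1 and 84.4, and of these Rhpn1 and Kbtbd8 had the same sign in BIC as in TTX. TTX against vehicle raised Rhpn1 by 1.86 in shCtrl and by 0.83 in shRai1 in the authors' deposited tables. Its mean count is thus raised by the TTX groups, and it may pass the minimum only through them. From BIC, the zinc finger gene Zscan18 differed by -0.98 (SE 0.22, adjusted p 0.00722) and Igfbp3, an insulin-like growth factor binding protein, by -0.77 (SE 0.16, adjusted p 0.00106).

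The TTX value was opposite in sign to both vehicle and BIC for 167 of the 188 members that differed from vehicle, for 42 of 42 that differed from BIC and for 202 of 202 that differed from their mean, a selection that favours opposite signs. Over all members, without selection, Pearson's r across genes between the knockdown in TTX and that in vehicle was -0.264, and between TTX and BIC it was -0.244, while vehicle and BIC gave 0.288. Genes are not independent replicates, so these coefficients describe the tables and carry no p. The part of library labels or batches in this opposition was not tested. The r with vehicle was -0.245 at mean counts of 50 to 200, -0.284 from 200 to 1000 and -0.384 at 1000 or more, and with BIC it was -0.212, -0.305 and -0.240. With intervals shared between genes left out, r was -0.269 with vehicle and -0.240 with BIC over 9855 members. The opposition was thus present at low and high expression and was weakest, at -0.122 with vehicle, for intervals under 10 kb.

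**Figure D4:**
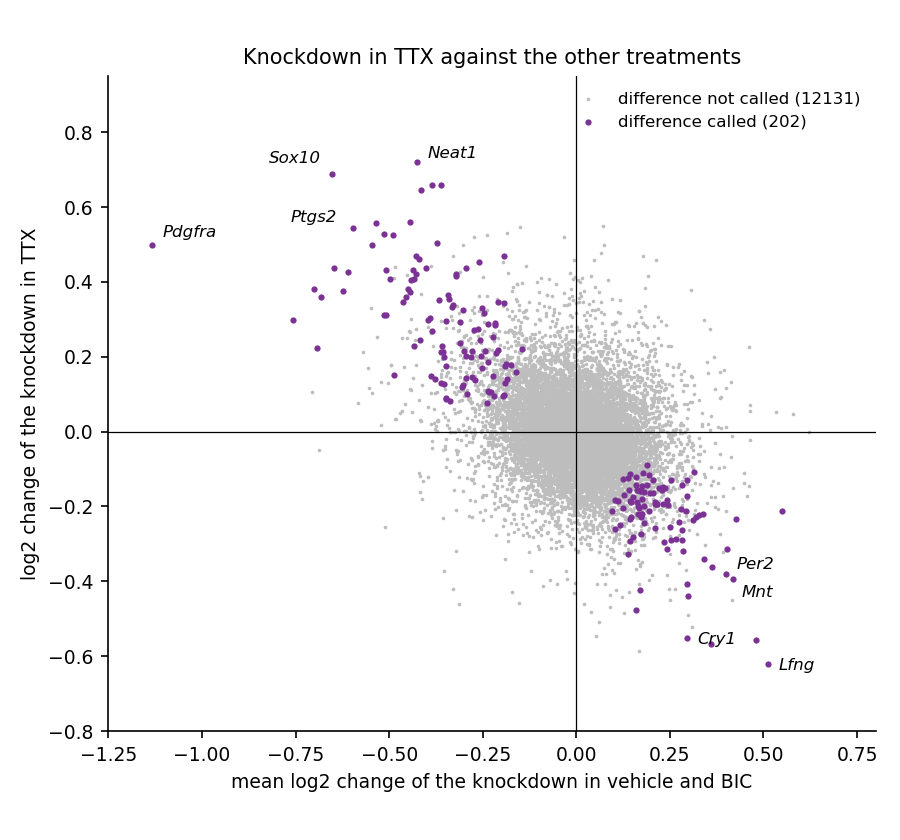
Log2 change of the knockdown in TTX (vertical axis) against its mean log2 change in vehicle and BIC (horizontal axis), 1 point for each of 12333 members, on equal scales. The 202 members whose difference was called (purple) lie to the upper left (109) and lower right (93), with Pdgfra farthest left.

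The genes were then read by pathway, beside the median of -0.010 over all members. Of 24 circadian clock genes, 22 were members, of which 14 were lower and 8 higher with a median log2 change of -0.067 (0.016 in vehicle, 0.048 in BIC). Cry1 was called and Per2, Hlf and Rora, a nuclear receptor that drives Bmal1, were lower at an unadjusted p under 0.05, at -0.38, -0.29 and -0.17 in the authors' deposited table. No clock gene was higher at that p, where 2.99% of all members were lower and 1.72% higher. In the test of differences Cry1, Per2 and Hlf passed against vehicle and against BIC, 3 of 22 below in each, where 0.608% and 0.162% of all members lay below.

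Of 27 Notch pathway genes, 19 were members, 10 higher and 9 lower with a median of 0.0019. Lfng was called, and Notch1, the receptor that fringe enzymes modify, had 0.19 (SE 0.094, unadjusted p 0.0476), while the ligand genes Jag2 (-0.16) and Jag1 (0.15) lay on either side of 0 in the authors' deposited table. The listed intervals of Notch1 and Jag2, like those of Rora and of Plk3, Lhfpl3 and Tcf20 named next, are shared with another gene. Of the Myc-Max-Mnt network 10 genes were members, 4 higher and 6 lower with a median of -0.012. Apart from Mnt none had an unadjusted p under 0.05, beside 4.71% of all members. Myc itself stood at 0.09 (SE 0.15) and Mycn at -0.14 (SE 0.12) in the authors' deposited table.

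Of 26 p53 pathway members, 21 were higher and 5 lower, with a median of 0.13 in TTX, -0.16 in vehicle and -0.023 in BIC. Only Trp53inp1 was called. Eda2r (0.53, SE 0.17), the stress sensor Sesn2 (0.25, SE 0.096) and the translesion polymerase Polk (0.31, SE 0.15) were higher at an unadjusted p under 0.05, and the kinase gene Plk3 was lower (-0.47, SE 0.17) in the authors' deposited table. At that p 1.72% of all members were higher and 2.99% lower. Against vehicle 3 of the 26 lay above and against BIC 2 did, beside 0.916% and 0.178% of all members, and none lay below.

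Of 10 oligodendrocyte precursor markers, 7 were members, 6 higher and 1 lower, with a median of 0.38 in TTX, -0.73 in vehicle and -0.41 in BIC. Pdgfra was called, and Olig2 (0.50), Sox10 (0.69) and Cspg4 (0.38) were higher at an unadjusted p under 0.05, whereas Lhfpl3 stood at -0.17 and Olig1 at 0.03 in the authors' deposited table. Among all members 1.72% were higher at that p. With a minimum mean count of 200 in place of 50 the median moved to 0.032. The summed fitted level of the 10 markers was 7126 in shCtrl and 6824 in shRai1 with TTX, a sum dominated by Lhfpl3 with a mean count of 5414. Over all members the sum was 1.565e+07 in shCtrl and 1.498e+07 in shRai1 with TTX. Against vehicle 5 of the 7 lay above and against BIC 3 did, beside 0.916% and 0.178% of all members. The authors' deposited tables gave Lhfpl3 0.02 in vehicle and -0.11 in BIC, and Vcan 0.0095 in TTX, -0.52 in vehicle and -0.16 in BIC. Of the PDGF ligands and receptors, 5 were members with a median of -0.036, and Pdgfra was the one that passed.

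Of the markers of other cells none was called in TTX. All 20 neuron markers were members, 17 lower and 3 higher with a median of -0.11 (-0.098 in vehicle, 0.050 in BIC). In vehicle 17 of the 20 were lower as well, and in BIC 7 were. Their summed fitted level was 82535 in shCtrl and 75913 in shRai1 with TTX. The sum over all members was also lower in shRai1, at 1.565e+07 in shCtrl and 1.498e+07 in shRai1 with TTX. At an unadjusted p under 0.05, Rbfox3, which encodes NeuN (-0.16, SE 0.059), and Dlg4, which encodes PSD-95 (-0.19, SE 0.075), were lower in the authors' deposited table, beside 2.99% of all members. Of 12 astrocyte markers, 6 were higher and 6 lower with a median of -0.032, and their vehicle median was -0.26, with 12 of 12 lower. In the test of differences 2 of the 12 lay above vehicle, beside 0.916% of all members, Acsbg1 by 0.65 (SE 0.13, adjusted p 0.000395) and Glul, whose interval is shared, by 0.40 (SE 0.10, adjusted p 0.0161). Acsbg1 stood at 0.21 in TTX and -0.44 in vehicle, and Glul at 0.11 and -0.29, in the authors' deposited tables. Of the 20 neuron markers 1 lay below vehicle, Rbfox3 by -0.40 (SE 0.090, adjusted p 0.00328), beside 0.608% of all members. No astrocyte or neuron marker passed against BIC. Of 12 myelinating oligodendrocyte markers only Mbp was a member (-0.19, SE 0.082), and of 13 microglia markers 8 had mean counts under 10. The 10 vascular and fibroblast markers all lay below the minimum, with a highest mean of 39.3 for Pecam1. The part of cell composition in the knockdown values was not tested.

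**Figure D5:**
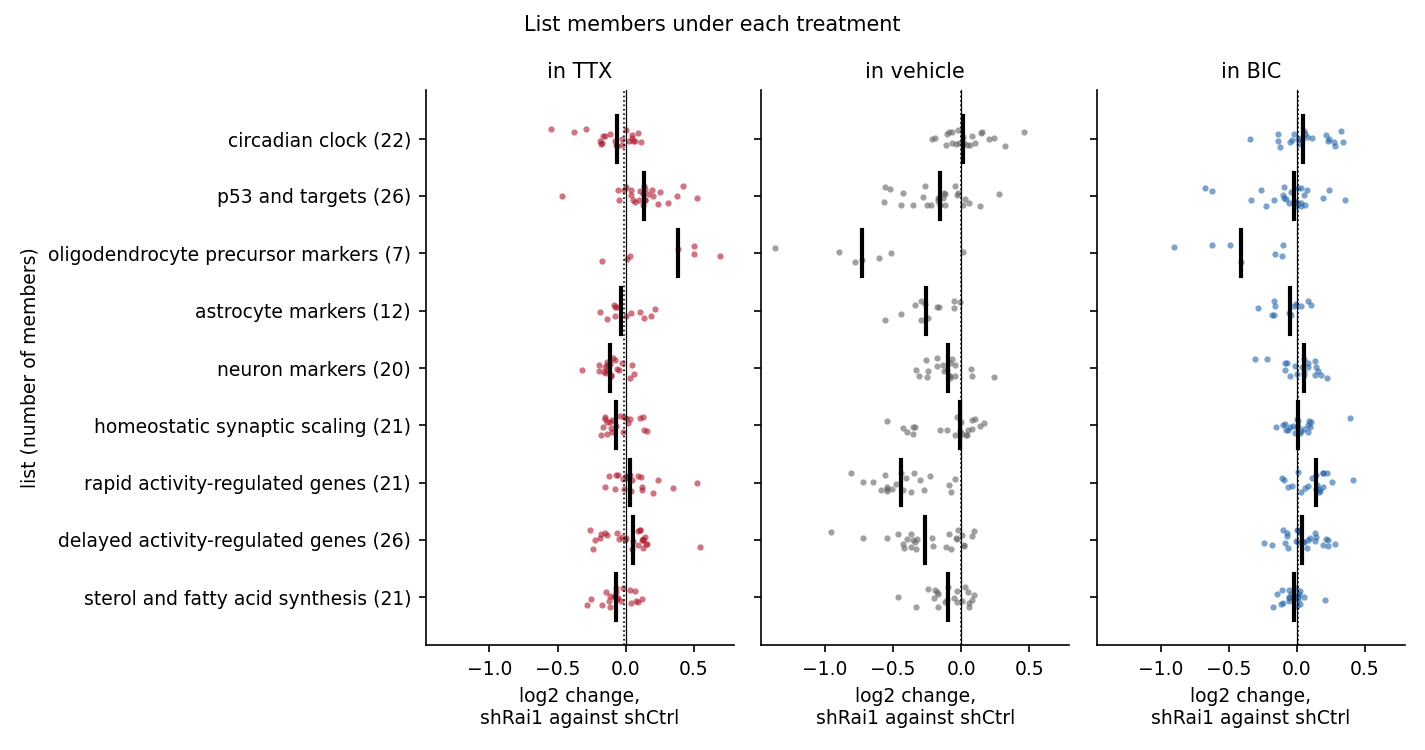
Log2 change of shRai1 against shCtrl for the members of 9 gene lists (rows, number of members in brackets) in TTX, vehicle and BIC; each point is 1 gene, thick bars are list medians and the dotted line is the median of all members. The oligodendrocyte precursor markers have a median of 0.38 in TTX and -0.73 in vehicle, and the rapid activity-regulated genes have 0.033 and -0.45.

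Genes that follow neuronal activity had medians of 0.033 and 0.050 in TTX. Of 21 rapid activity-regulated genes, such as Fos and Egr family members, 14 were higher and 7 lower with a median of 0.033, against -0.45 in vehicle (21 of 21 lower) and 0.14 in BIC (17 of 21 higher). TTX is known to lower such genes, and the median SE of their changes was 0.215. Klf4 was the one with an unadjusted p under 0.05 (0.52, SE 0.24) in the authors' deposited table, with fitted levels of 26.5 and 38.0 below the minimum, and none of the 21 passed in any of the 3 differences. Over all members 4.71% had an unadjusted p under 0.05. Of 26 delayed activity-regulated genes, 15 were higher and 11 lower with a median of 0.050. The secreted peptide precursor Vgf stood at -0.26 (SE 0.10) and Ptgs2 at 0.54 (SE 0.23) in the authors' deposited table, and 5 of the 26 lay above vehicle in the test of differences, beside 0.916% of all members, with none above BIC. The 5 include Ptgs2, whose levels with TTX lay below the minimum and which is a member through its other groups.

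Of 21 members tied to homeostatic synaptic scaling, 14 were lower and 7 higher, with a median of -0.068 (-0.0094 in vehicle, 0.0085 in BIC). The AMPA receptor auxiliary subunit Cacng2 (-0.16, SE 0.072), the pentraxin Nptx1 (-0.18, SE 0.088) and the postsynaptic protein gene Sipa1l1 (-0.12, SE 0.058) were lower at an unadjusted p under 0.05, and the AMPA receptor subunit Gria1 had -0.16 (SE 0.091) in the authors' deposited table. None was called in TTX, and among all members 2.99% were lower at that unadjusted p. In the test of differences 2 of the 21 lay above vehicle, beside 0.916% of all members, namely Homer1, a postsynaptic scaffold gene (0.51, SE 0.095, adjusted p 7.99e-05), and Plk2, an activity-induced kinase gene (0.55, SE 0.13, adjusted p 0.00333), both of which are also in the delayed activity list and Plk2 also in the p53 list. In the authors' deposited tables Homer1 stood at 0.11 in TTX and -0.40 in vehicle, and Plk2 at 0.12 and -0.43. None of the 21 passed against BIC. Of 9 voltage-gated sodium channel genes, the targets of TTX, 7 were lower and 2 higher with a median of -0.082 in the authors' deposited table.

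Sterol and fatty acid synthesis held 21 members, 15 lower and 6 higher with a median of -0.069. Of 18 members in the interval that matches the Smith-Magenis deletion, 10 were lower and 8 higher with a median of -0.037. None reached an unadjusted p of 0.05, beside 4.71% of all members. The 6 member genes among RAI1 and its related chromatin factors had a median of 0.012, among them Tcf20 at -0.11 (SE 0.065) and Phf14 at 0.01 (SE 0.075) in the authors' deposited table. The integrated stress response list (17 members, median -0.0083) held 2 genes that were higher at an unadjusted p under 0.05, beside 1.72% of all members. These were Sesn2 and Trib3 (0.34, SE 0.14) in the authors' deposited table. The medians were -0.026 for the heat shock list (8 members), -0.015 for interferon (5), 0.036 for retinoic acid (8) and 0.034 for cell cycle (14), and none of their genes was called in TTX. In the test of differences 1 of the 14 cell cycle genes (Mki67) and 1 of the 17 stress response genes (Trib3, 0.90, SE 0.21, adjusted p 0.00392) lay above vehicle, beside 0.916% of all members.

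Lastly, the knockdown in TTX was read along the response to BIC in shCtrl, which shares no library with it. The 526 members that BIC raised by at least 1 on the log2 scale (deposited adjusted p below 0.05) in the authors' deposited table had a median knockdown value of -0.0046 in TTX, with 248 above and 278 below 0. The 312 members that BIC lowered by as much had a median of -0.088, with 66 above and 246 below 0. Of these 312, 34 were lower and 2 higher at an unadjusted p under 0.05, and 0 were called in the authors' deposited table, beside 2.99% lower and 1.72% higher at that p and 53.9% below 0 among all members. With the response measured in shRai1 in place of shCtrl, 329 lowered members had a median of -0.092 and 624 raised members one of 0.0048. Over all members r between the BIC response in shCtrl and the TTX knockdown was 0.063.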

How the data were processed

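Bru-seq libraries were compared as the authors deposited them, in tables of log2 changes, standard errors, scores and p-values from DESeq2, 1 table per comparison, and in 1 FPKM table with a pooled value and bounds per condition. TopHat2 2.1.0, Bowtie2 2.2.6, DESeq2 and the mouse build mm9 are named in the submitters' processing notes; coordinates of genes are those of the deposited FPKM table. The mean normalized count (a signal averaged over 16 libraries), the score and the adjusted p are the authors' own; scores and p-values matched a normal reference and the Benjamini-Hochberg adjustment. Whether log2 changes were shrunken is not given in the sources used here, but no SE exceeded 0.424 among the 5955 tested genes with mean counts under 10, so fold changes of low genes may be understated. The deposited table of the vehicle knockdown gives no gene names, and its 20107 rows with a unique mean count were named by it. The deposited FPKM columns of the knockdown arm did not follow their names (r of -0.633 between the TTX change they give and that of the DESeq2 table over 12311 genes) and were not used. The column named vehicle against that named BIC gave r 0.741 with the TTX response of shRai1. The column named TTX against that named BIC gave r 0.817 with the BIC response of shRai1. Whether library labels were exchanged elsewhere was not tested. Fitted levels were computed from the mean count, the group sizes and the deposited log2 changes. Differences between knockdowns were tested with Wald tests on the deposited values (Python 3.11.15, pandas 2.3.3, NumPy 2.4.6, SciPy 1.17.1). Tested on simulated data with 12333 genes, these recovered 86% of changes of 1 and 45% of changes of 0.5 against vehicle, 87% and 40% against BIC, and 96% and 62% against the mean, with 13, 6 and 3 false calls. Named were Rai1, the called genes, the next by p up to 24, the 5 largest differences in each direction and up to 4 members of each of 23 lists. The members and lists were chosen with earlier results of these data known. A few genes of these lists are not reported here.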

Additional observations from a re-analysis of the deposited data

Results flagged for a closer look

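The difference between the knockdown in TTX and the knockdown under another treatment was singled out where it passed an adjusted p of 0.05 (Wald test, 12333 members) and was among the 5 largest in its direction, or belonged to a gene called in TTX. The values are differences of log2 changes, TTX minus the other treatment, with the TTX labels as given. The larger part of a difference can be the other treatment's value, as for Mki67 (0.36 in TTX, -0.96 in vehicle). Each TTX value had the opposite sign to the value it was set against. Each difference would therefore be smaller with the TTX sign turned, and the selection was not recomputed that way.

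Against vehicle the TTX value was above for Pdgfra (1.86), Sox10 (1.59), Ptgs2 (1.496), Neat1 (1.32), Mki67 (1.32), Dhrs1 (1.20) and Trp53inp1 (0.94). The fitted levels of Ptgs2 with TTX, 24.1 and 35.2, lay below the minimum of 50 that its mean over all libraries passed. The TTX value was below for Gdf10 (-1.24), Piwil2 (-1.14), Rhpn1 (-1.02), Lfng (-1.02), Kbtbd8 (-0.95), Cry1 (-0.87) and Mnt (-0.74). Rhpn1 was highest with TTX and may pass the minimum only through its TTX groups.

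Against BIC it was above for Pdgfra (1.40), Eda2r (1.15), Cspg4 (1.00), Olig2 (0.99), Dhrs1 (0.98) and Trp53inp1 (0.75), and below for Lfng (-1.24), Zscan18 (-0.98), Mnt (-0.88), Cry1 (-0.82) and Igfbp3 (-0.77).

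Against the mean of vehicle and BIC it was above for Pdgfra (1.63), Sox10 (1.34), Neat1 (1.15), Ptgs2 (1.14), Dhrs1 (1.09) and Trp53inp1 (0.85), and below for Lfng (-1.13), Gdf10 (-1.04), Ifi203 (-0.93), Cry1 (-0.85) and Mnt (-0.81).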

How the results depend on the processing

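In TTX, 6 genes were called in the main test, 2 (Cry1 and Lfng) at an adjusted p under 0.01 and 0 with a t distribution on 10 degrees of freedom (374 genes at an unadjusted p under 0.05). The difference from vehicle had 188 calls, which became 323 at an adjusted p under 0.1, 75 at 0.01 and 1 with the t distribution. The difference from BIC had 42, which became 71, 21 and 0 (514 at an unadjusted p under 0.05), and that from the mean had 202, which became 317, 75 and 1. The fewer calls follow from the construction of these settings, a stricter threshold or wider tails. Other gene filters, centring on the median and, for vehicle, errors from the response tables kept each count within 1.5 times, but the directions shifted. At a mean count of at least 200 the difference from the mean had 81 above and 96 below, against 109 and 93, and after centring the difference from BIC had 31 and 17, against 22 and 20. List medians near 0 changed sign at a mean count of at least 200 for PDGF (-0.036 to 0.059), cell cycle (0.034 to -0.025) and interferon genes (-0.015 to 0.020), at 10 for retinoic acid genes (0.036 to -0.041) and relative to all members for the integrated stress response (-0.0083 to 0.0017). Other medians moved in size only. Among them were sodium channels (-0.082 to -0.019) and the Smith-Magenis interval (-0.037 to -0.094) at 200, and astrocyte markers (-0.032 to -0.067) at 10. None of the genes recomputed, those named with a value except the pair next to the minimum count, changed sign, and Kbtbd8 against vehicle also lost its call over genes with a mean count of at least 10 and after centring.

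No paired analysis was possible because the deposited tables hold no value per library. For the same reason leaving out a replicate and edgeR were not run, nor was an error from the response tables for the difference from BIC. At the median SE, which includes the spread between libraries, a gene needed a log2 change of 0.46 to be called, and total depth is unknown.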
